A study of Bos taurus with 2 samples.

Results

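The entries named mir-320, mir-484 and PC-320 in the small RNA profiles of the bovine mammary gland (MG) are described here. They were chosen by name, with the reads of both libraries already known: 2 entries, mir-320-3p and mir-484-5p, came from the table of known bovine miRNAs, and 4 entries whose names begin with PC-320 came from the table of conserved miRNAs, which holds miRNAs known in other mammals. These 6 entries are among 884 unique miRNAs listed in all. One library was made from the MG of a lactating cow aged 6 years and 2 months in milk, and the other from the MG of a cow aged 4 years that was neither lactating nor pregnant. Each condition has 1 library, so there is no replicate error, no test was made between the libraries, and the age of the cow cannot be told apart from the lactation period.

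Most miRNAs are cut out of a long primary transcript in the nucleus by Drosha, working with DGCR8, and the released hairpin (the pre-miRNA) is then cut by Dicer into a duplex, 1 strand of which is loaded into an Argonaute protein. In human and mouse cells, mir-320 and mir-484 are known as exceptions: the hairpin of mir-320 is transcribed directly as a short capped RNA, and both miRNAs are still made in cells without Drosha, though they need Dicer. Bases 2 to 8 of the mature strand, the seed, do most of the pairing with target mRNAs. These are facts from other systems, and no measurement of Drosha, DGCR8 or Dicer was used here.

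The sequences of the 6 entries are shown because the PC-320 entries differ from mir-320-3p in a few bases only, and because the seed decides which entries would pair with the same targets. They are the most abundant sequences in the deposited tables, written from 5′ to 3′ with the seed in capitals.
mir-320-3p: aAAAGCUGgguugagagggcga
PC-320c-2-3p: aAAAGCUGgguugagagggcau
PC-320d-3p (22 nt): aAAAGCUGgguugagaggguaa
PC-320d-3p (21 nt): aAAAGCUGgguugagaggaaa
PC-320d-5p: aAAGCUGGguugagagggau
mir-484-5p: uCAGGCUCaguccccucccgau

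The seed AAAGCUG was found in mir-320-3p, PC-320c-2-3p and both PC-320d-3p entries, and in no other of the 884 unique miRNAs. These 4 entries were identical over their first 18 bases. With positions counted from 1 at the 5′ end of mir-320-3p and the base of mir-320-3p written first, PC-320c-2-3p differed by G21A and A22U, the 22 nt PC-320d-3p by C20U and G21A, and the 21 nt PC-320d-3p by G19A, C20A and G21A. PC-320d-5p began 1 base later than mir-320-3p, so its seed was AAGCUGG, which no other entry had, and over the bases it shared with mir-320-3p it differed by C20A and G21U. All differences between mir-320-3p and the PC-320 entries thus lay in the last 4 bases of mir-320-3p. The seed of mir-484-5p, CAGGCUC, was found in no other unique miRNA.

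The composition of the 2 known members differed. mir-484-5p had a GC content of 63.6%, with 10 C and 4 G, and 10 of the 283 known miRNAs had a higher GC content. mir-320-3p had a GC content of 54.5%, with 2 C and 10 G, and 56 known miRNAs were higher. The median of the known miRNAs was 45.5%.

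Not every PC-320 sequence matched the hairpin listed for it. The last base of PC-320c-2-3p differed from its 137 nt hairpin by A22U, and PC-320d-5p differed from its 77 nt hairpin by C4G; in both, the hairpin's base comes first and positions are counted from the 5′ end of the miRNA. The hairpin listed for the 22 nt PC-320d-3p was 47 nt long and ended 4 bases before the end of the miRNA, and that of the 21 nt PC-320d-3p was 48 nt long and ended 2 bases before it. In both PC-320d-3p entries, the bases inside the hairpin matched it in full. Both differences of the 22 nt PC-320d-3p from mir-320-3p therefore lay past the end of its listed hairpin, as did C20A and G21A of the 21 nt PC-320d-3p.

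The positions in the tables are those of the bovine assembly BTA 4.0. The mir-320 pre-miRNA was listed on the plus strand at chr20:16455494-16455575 (82 nt), and that of mir-484 on the plus strand at chr25:14994311-14994373 (63 nt). The 22 nt PC-320d-3p had 2 positions. One, chr20:16455512-16455558 on the plus strand, lay inside the mir-320 pre-miRNA, and the other was chr8:72629919-72629965 on the minus strand. PC-320d-5p was listed at chr14:69405990-69406066 on the plus strand, and no position was listed for PC-320c-2-3p or the 21 nt PC-320d-3p. Since one position of PC-320d-3p lay within that of mir-320-3p and the sequences share their first 18 bases, reads cannot be assigned with certainty between these entries.

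Neither known pre-miRNA lay in a cluster. The nearest other listed pre-miRNA was mir-582-5p at 4631 kb from mir-320 and mir-365-5p at 661 kb from mir-484. Of the 273 distinct positions of known pre-miRNAs, 127 (46.5%) had another listed pre-miRNA within 10 kb. The mir-484 pre-miRNA was short, with 11 of the 273 shorter and a median of 84.0 nt, whereas 116 were shorter than that of mir-320. In the RefSeq annotation of another assembly, ARS-UCD2.0, the gene that carries the name of mir-320 on chromosome 20, MIR320A-2, overlaps RNF180. A second copy, MIR320A-1, is on chromosome 8, with POLR3D, which encodes an RNA polymerase III subunit, as the nearest protein-coding gene, and MIR320B is on chromosome 4, nearest to PLXNA4. MIR484 has MARF1 as its nearest protein-coding gene, followed by NDE1.

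mir-320-3p was among the abundant miRNAs of the MG in both libraries. Its most abundant sequence had 40436 reads in the lactating MG and 56121 in the non-lactating MG. In reads per 1000000 clean reads of the library (RPM), this was 3380 (exact 95% Poisson interval 3347 to 3413) and 3515 (3486 to 3544). It held place 19 of the unique miRNAs in the lactating MG and place 21 in the non-lactating MG, and its reads were 0.718% and 0.733% of the reads in the most abundant sequences of all known miRNAs. These intervals, like all others here, cover counting error only, since each condition has 1 library. Reads copied by PCR are not independent molecules, so even the counting error may be larger than they show.

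In the order of known miRNAs, mir-320-3p stood between mir-92-3p (3771 RPM, 3737 to 3806) and mir-24-3p (3253 RPM, 3221 to 3285) in the lactating MG, and its interval overlapped neither. In the non-lactating MG it stood between mir-23a-3p (3552 RPM, 3523 to 3581) and mir-145-5p (3436 RPM, 3407 to 3464). There its interval overlapped that of mir-23a-3p, so these neighbours did not differ beyond counting error, but not that of mir-145-5p.

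The level of mir-320-3p per clean read was nearly the same in the libraries. The RPM ratio of lactation to non-lactation was 0.962 (exact 95% interval 0.949 to 0.974). IsomiRs are the sequence variants that the authors grouped under an entry. With the reads of all isomiRs, there were 105506 reads in the lactating MG and 150553 in the non-lactating MG, with a ratio of 0.935 (0.928 to 0.943). The ratio was below 1 under every total that was tried, from 0.721 without scaling to 0.988 with the sum of the listed reads. No intervals were computed for these other totals. The value of 0.988 is close to 1, so no direction is claimed for that total. Among the 273 unique miRNAs with at least 100 reads in both libraries together, 20 had a ratio per clean read within 1.1-fold of 1, mir-320-3p included. Its ratio was outside that range per raw read (0.897), with TMM factors (0.802) and with DESeq2 size factors (0.791). The median log2 ratio of those 273 was 0.24, and mir-320-3p lay 0.29 below it on the log2 scale.

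**Figure D1:**
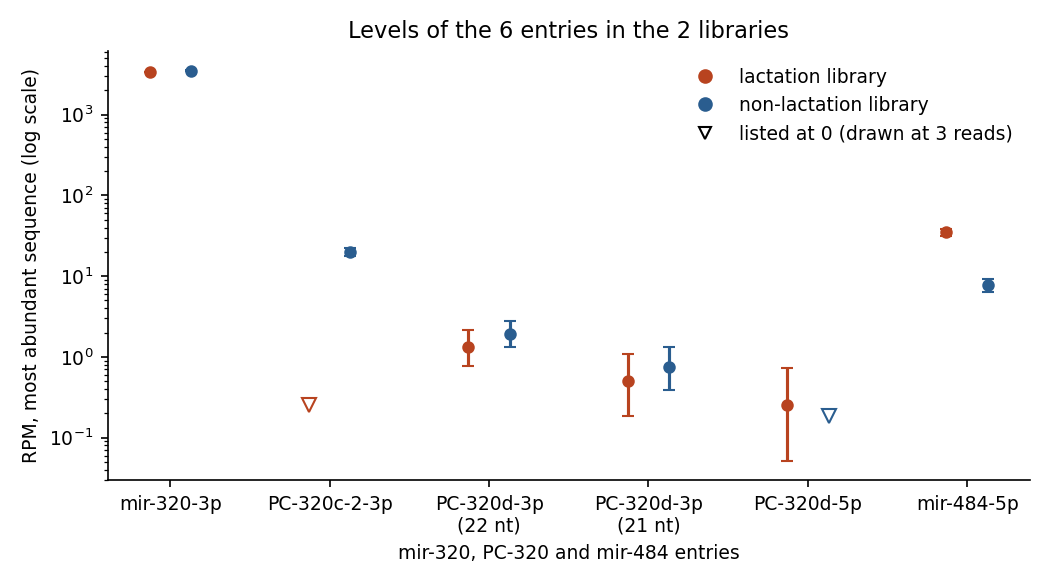
RPM of the most abundant sequence of each entry (log axis) in the lactation and non-lactation library, with exact 95% Poisson intervals as bars. Open triangles mark entries listed at 0, drawn at the RPM of 3 reads. mir-320-3p lies at 3380 and 3515 RPM, mir-484-5p is higher in the lactating MG, and PC-320c-2-3p has reads in the non-lactating MG alone.

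mir-484-5p was much less abundant and was higher in the lactating MG. It had 420 reads in the lactating MG and 123 in the non-lactating MG, or 35.1 RPM (31.8 to 38.6) and 7.70 RPM (6.40 to 9.19). It held place 126 and place 189 of the unique miRNAs. The RPM ratio was 4.56 (3.72 to 5.62), and with all isomiRs, 776 and 280 reads, it was 3.70 (3.22 to 4.26). The other isomiRs without the most abundant sequence gave a ratio of 3.03 (2.50 to 3.67), an interval that did not overlap that of the most abundant sequence.

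The ratio of mir-484-5p stayed above 2 under every total tried, from 3.41 without scaling to 4.68 with the sum of the listed reads. Relative to the median of the 273 miRNAs it was higher by 1.95 on the log2 scale. Of those 273 miRNAs, 79 (28.9%) were at least 2-fold higher in the lactating MG and 28 had a higher ratio than mir-484-5p, 17 of them known miRNAs. Since mir-484-5p was chosen with these values known, its ratio is a description with no test.

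mir-484-5p had close neighbours in level. In the lactating MG it stood between mir-142-5p (35.4 RPM) and mir-362-3p (32.3 RPM), and in the non-lactating MG between mir-194-5p (7.89 RPM) and mir-874-3p (7.45 RPM). The intervals of all 4 neighbours overlapped that of mir-484-5p, so that its place in the order was not set beyond counting error.

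**Figure D2:**
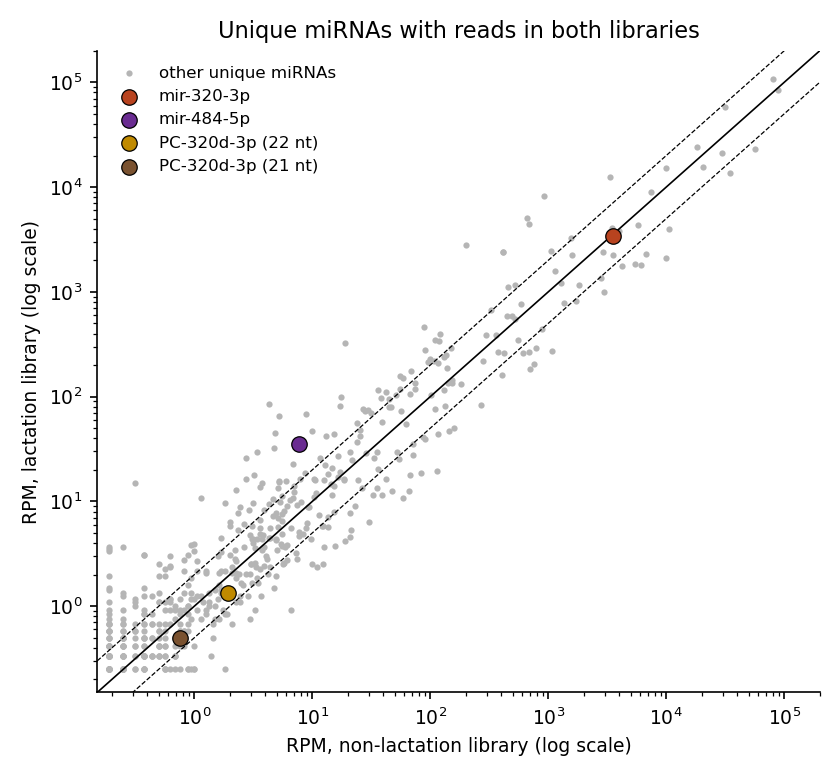
RPM of each unique miRNA with reads in both libraries, non-lactation on the horizontal and lactation on the vertical axis (both log axes). The solid line marks equal RPM and the dashed lines a 2-fold difference. mir-320-3p lies on the line of equal RPM, mir-484-5p above the upper dashed line, and both PC-320d-3p entries among the miRNAs with few reads.

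The PC-320 entries held a small part of the reads of this sequence group. In the lactating MG, all 4 together had 25 reads in their most abundant sequences, or 0.0618% (exact 95% binomial interval 0.0400 to 0.0912) of the reads of the mir-320 and PC-320 entries. In the non-lactating MG they had 359 reads, or 0.636% (0.572 to 0.705). This difference came from PC-320c-2-3p alone: without it the other 3 entries had 25 and 43 reads, or 0.0618% and 0.0761% (0.0551 to 0.103). Adding all PC-320 entries to mir-320-3p left the ratio at 0.956 (0.944 to 0.968), against 0.962 for mir-320-3p alone.

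PC-320c-2-3p was listed at 0 in the lactating MG and had 316 reads in the non-lactating MG (19.8 RPM, 17.7 to 22.1). With the 0 set to 3 reads, the lowest value the tables list, it was at least 78.9-fold lower in the lactating MG, a bound that leaves out the counting error of the 316 reads. Its isomiRs were listed at 0 and at 863 reads, of 20 kinds. Of the 273 miRNAs with 100 or more summed reads, 62 (22.7%) were at least 2-fold lower in the lactating MG, and 8 were listed at 0 in 1 of the libraries, 4 in each.

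Those 8 included entries with far more reads than PC-320c-2-3p: mir-107-3p, for example, was listed at 0 in the lactating MG and at 115244 reads in the non-lactating MG. The sequence of PC-320c-2-3p is that of mir-320-3p up to the last 2 bases, and mir-320-3p had 65070 reads in other isomiRs in the lactating MG and 94432 in the non-lactating MG. The tables give the number of isomiR reads and not their sequences. Whether reads with the sequence of PC-320c-2-3p were counted under mir-320-3p in the lactating MG was not tested.

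Both PC-320d-3p entries were near the limit of detection. The 22 nt entry had 16 reads in the lactating MG and 31 in the non-lactating MG, with a ratio of 0.689 (0.352 to 1.30). The 21 nt entry had 6 and 12 reads, with a ratio of 0.667 (0.205 to 1.92). Both intervals included 1, so a difference was not detectable at this depth. With all isomiRs the 22 nt entry had 37 and 65 reads (ratio 0.760, 0.493 to 1.15), and the 21 nt entry had 35 and 38 (ratio 1.23, 0.754 to 2.00). PC-320d-5p had 3 reads in the lactating MG and was listed at 0 in the non-lactating MG, where a count of 0 allows up to 3 reads, so no fold is given.

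Of the 6 entries, mir-320-3p, mir-484-5p and PC-320c-2-3p had at least 100 summed reads. mir-484-5p was at least 2-fold higher in the lactating MG, PC-320c-2-3p was at least 2-fold lower, and mir-320-3p was neither. The other 3 entries, with 47, 18 and 3 summed reads, were too low for this count.

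**Figure D3:**
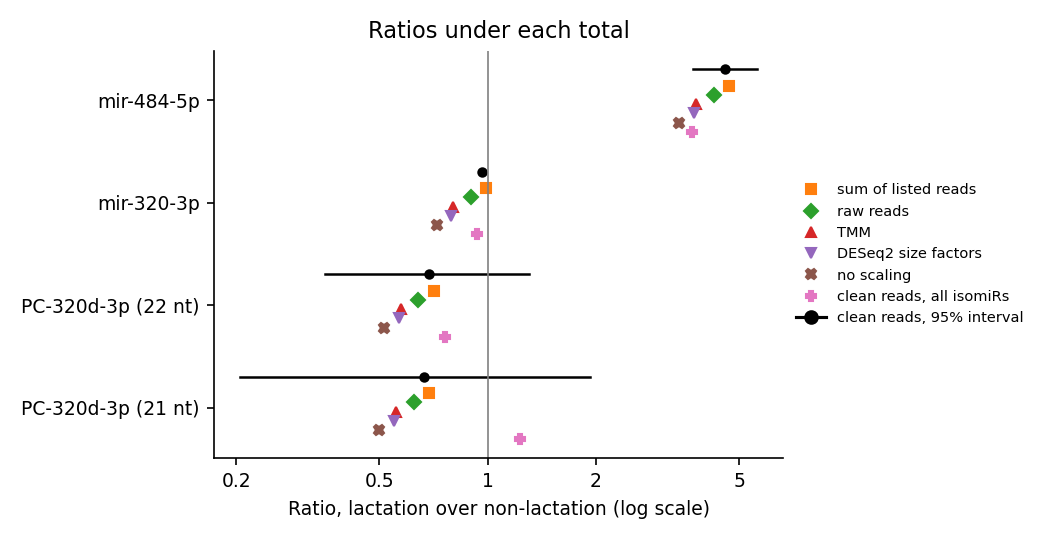
RPM ratio of lactation to non-lactation (log axis) for the 4 entries with reads in both libraries. The black point and bar give the ratio per clean read with its exact 95% interval, and the coloured symbols the ratio under each other total and with all isomiRs. All ratios of mir-484-5p lie above 3, those of mir-320-3p between 0.721 and 0.988, and the bars of both PC-320d-3p entries cross 1.

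The isomiR reads, which were also known when mir-320-3p was chosen, describe how its reads were spread over sequences. The most abundant sequence made up 38.3% (exact 95% binomial interval 38.0 to 38.6) of its isomiR reads in the lactating MG and 37.3% (37.0 to 37.5) in the non-lactating MG. Among known miRNAs with at least 1000 isomiR reads, the median share was 45.7% over 107 miRNAs in the lactating MG and 45.2% over 110 in the non-lactating MG. A lower share than that of mir-320-3p was found in 28 of the 107 and 34 of the 110. The share of mir-320-3p was therefore below the median in both libraries but not at the end of the order.

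mir-320-3p was listed with 277 kinds of isomiR in the lactating MG and 249 in the non-lactating MG. Of the 16 known miRNAs with between 0.5 and 2 times as many isomiR reads in the lactating MG, 14 had fewer kinds, with a median of 242. In the non-lactating MG 11 of 14 had fewer, with a median of 176.

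For mir-484-5p, the most abundant sequence made up 54.1% (50.5 to 57.7) of the isomiR reads in the lactating MG and 43.9% (38.0 to 50.0) in the non-lactating MG. These shares were 10.2 percentage points apart, and their intervals did not overlap. Among known miRNAs with at least 100 isomiR reads, 122 of 182 had a lower share than mir-484-5p in the lactating MG and 89 of 189 in the non-lactating MG, so it stood above the median of 45.1% in the first and just below that of 45.2% in the second. It had 17 and 12 kinds of isomiR, against medians of 17 and 9 for known miRNAs with between 0.5 and 2 times its isomiR reads.

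**Figure D4:**
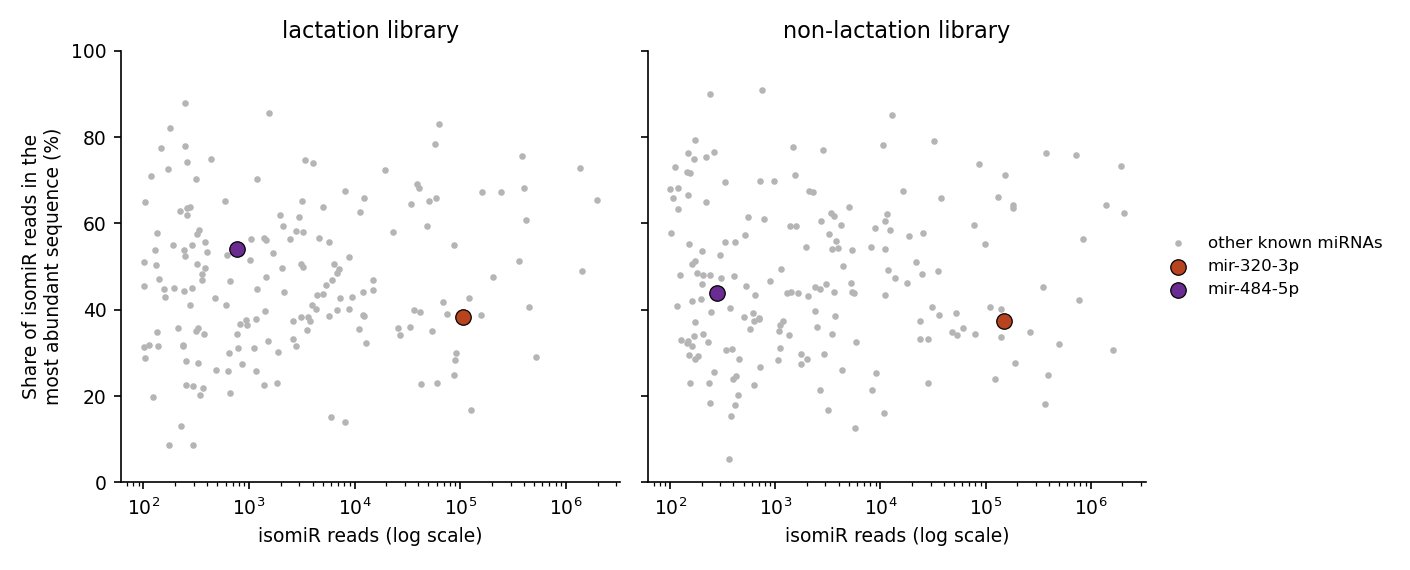
Share of isomiR reads in the most abundant sequence (vertical axis, percent) against isomiR reads (log axis) of known miRNAs with at least 100 isomiR reads, 1 panel for each library. mir-320-3p lies at 38.3% and 37.3%, below the medians, and mir-484-5p at 54.1% and 43.9%.

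A single arm was listed for each known pre-miRNA: the 3′ arm for mir-320 and the 5′ arm for mir-484. A second arm was looked for in all tables at the same coordinates. For mir-320 this was the listed position on chromosome 20, so MIR320A-1 on chromosome 8 was not covered. Of the 273 known pre-miRNAs, 133 (48.7%) had both arms listed, and of those whose more abundant arm had at least 10000 reads, 39 of 59 (66.1%) had both. Of the 21 pre-miRNAs with more reads than mir-320, 15 had both arms listed and 6 did not. The 6 were those of mir-26a-5p, let-7c-5p, mir-103-3p, a second position of mir-26b-5p, mir-107-3p and mir-125b-5p, so other abundant pre-miRNAs also had 1 arm listed.

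For mir-484, of 35 known pre-miRNAs with between 0.5 and 2 times its reads, 19 (54.3%) had both arms listed. A missing arm means that it had no listed reads. The tables list no value above 0 that is below 3 reads, so a rare second arm of either pre-miRNA may lie under that limit.

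**Figure D5:**
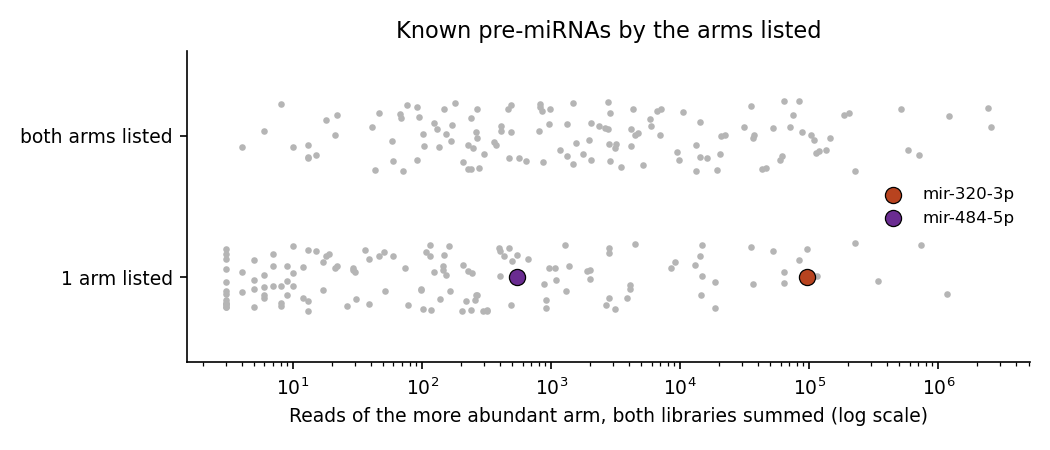
Known pre-miRNAs by the summed reads of their more abundant arm (log axis) and by whether both arms or 1 arm were listed, with points spread vertically for legibility. mir-320 and mir-484 both lie in the row with 1 arm, mir-320 near the upper end of the range.

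The known miRNAs whose levels in the 2 libraries were nearest to mir-320-3p were found by the Euclidean distance of log2 RPM among 247 known miRNAs with reads in both libraries. They were mir-92-3p (distance 0.24), mir-145-5p (0.26) and let-7d-5p (0.55), with RPM ratios of 0.951, 1.17 and 0.831. In all 3 the most abundant sequence held a larger share of isomiR reads than the 38.3% of mir-320-3p in the lactating MG: 78.5% for mir-92-3p, 55.1% for mir-145-5p and 59.3% for let-7d-5p. The nearest to mir-484-5p were mir-362-3p (0.70), mir-1468-5p (0.75) and mir-369-3p (0.93), with ratios of 6.80, 2.20 and 2.15. The likeness rests on 2 libraries and says nothing of shared control.

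Other small RNAs that depart from the usual route at the Drosha or the Dicer step, or that derive from other RNAs, were set beside the members as a list of 9. It holds mir-451-5p, whose hairpin is cut by Argonaute 2 in place of Dicer, the mirtrons mir-877-5p and PC-1224-5p, which are released by splicing, mir-1839-5p, a snoRNA-derived entry, and PC-1260b-5p, PC-1274-5p, PC-1274a-5p, PC-720-1-5p and PC-720-5p, whose human namesakes are known as tRNA fragments. The list is not complete: PC-1274b-5p, with a similar name, was left out, at 2.59 and 0 RPM on 31 summed reads. Of the 9, 4 had at least 100 summed reads. mir-451-5p was 2.50-fold (2.23 to 2.80) higher in the lactating MG, with 889 and 475 reads, and PC-1274-5p, with 576 reads and a listed 0 that was set to 3 reads, was at least 256-fold higher, without the counting error of its reads. mir-451-5p is also a marker of erythroid cells, and mir-486-5p, another such marker, had a ratio of 5.88 (4.22 to 8.36). The part of erythroid cells in the ratio of mir-451-5p was not tested. PC-1274a-5p, with 197 and 165 reads, had a ratio of 1.59 (1.29 to 1.97), and PC-1260b-5p, with 52 and 50 reads, one of 1.39 (0.923 to 2.09). The median log2 ratio of these 4 was 1.00, with the listed 0 at 3 reads, against 0.24 over the 273.

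Among the 5 others, mir-1839-5p had 28 and 70 reads and a ratio of 0.534 (0.332 to 0.838), and the remaining 4 had at most 9 reads. mir-877-5p was listed at 0 in the lactating MG and at 4 reads in the non-lactating MG. mir-320-3p and mir-484-5p did not share a direction with each other. In the list, the 4 entries with at least 100 summed reads all had ratios above 1, though the interval of PC-1260b-5p included 1. The ratio of mir-1839-5p, below 1, rested on 98 summed reads, fewer than that minimum. With all isomiRs it had 76 and 204 reads and a ratio of 0.497 (0.377 to 0.650). By the same measure PC-1260b-5p had a ratio of 1.05 (0.717 to 1.54), mir-451-5p one of 2.87 and PC-1274a-5p one of 2.14.

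HK2 encodes hexokinase 2, which catalyses the first step of glycolysis, and the study placed mir-484 among its predicted regulators. The 4 further miRNAs predicted for HK2 were listed here as 5 entries, since both arms of mir-500 were counted. Of these 5, the 2 arms of mir-500 were at least 2-fold higher in the lactating MG and 2 entries were at least 2-fold lower, against 28.9% and 22.7% of the 273 miRNAs. mir-500-5p had 115 and 29 reads (ratio 5.29, 3.50 to 8.25), and mir-500-3p had 76 and 32 reads (3.17, 2.07 to 4.95). mir-125b-5p had 1856 RPM in the lactating and 5451 in the non-lactating MG (ratio 0.340, 0.335 to 0.346), and mir-199b-5p had 17.9 and 67.4 RPM (0.265, 0.228 to 0.307). mir-181a-5p was the fifth, with a ratio of 0.639 (0.626 to 0.652). The median log2 ratio of these 5 was -0.65, against 0.24 over the 273. The list comes from the study's own target prediction and was set with these values known, so its counts are not independent evidence of a direction. The authors also put RNA duplexes that mimic the predicted miRNAs into cultured Mac-T cells. They reported less HK2 protein with the mimics for mir-484 and for mir-500. With mimics for the other predicted miRNAs, they reported no significant change in HK2 protein.

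The marker miRNAs of several cell types differed in level between the libraries. The tables list 5745961 reads in most abundant sequences for the lactating MG and 7879028 for the non-lactating MG. The 5 epithelial markers of the mir-200 family summed to 12201 RPM in the lactating MG and 1903 RPM in the non-lactating MG, and each was at least 2-fold higher in lactation. The 4 striated muscle markers summed to 4480 and 696 RPM, of which mir-1-3p alone held 4393 and 691 RPM. Among them, mir-133b-3p had 10 and 7 reads and mir-206-3p 13 and 5 reads. The 2 arms of mir-126, a marker of endothelium, summed to 487 and 165 RPM, and the 3 erythroid markers to 90.8 and 32.5 RPM. Of the erythroid markers, mir-144-3p had only 3 reads in the lactating MG and 0 in the non-lactating MG, so no fold is given. The 4 leukocyte markers went the other way, with 56.7 and 113 RPM. So did 3 miRNAs outside these lists, named after their values were seen: mir-205-5p, known from basal epithelium, with 184 and 693 RPM, PC-203-3p, known from epithelium, with 12.5 and 47.0 RPM, and mir-199a-3p, known from stroma, with 2100 and 9968 RPM. Others named in the same way did not. Of these, mir-214-3p, known from stroma, had 2.17 and 1.25 RPM on 46 summed reads. For mir-143-3p, known from smooth muscle, the levels were 2471 and 1050 RPM. No direction is therefore given for stroma. Fewer cells of a type and less RNA per cell cannot be told apart in such tissue samples, and the part of these cell types in the ratio of mir-484-5p was not tested.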

How the data were processed

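Small RNA from the MG was sequenced in 1 library per condition. The authors removed adaptors and reads of other RNAs, mapped the rest with ACGT101-miR to miRBase 17.0 and the bovine assembly BTA 4.0, and deposited whole-number read counts for each entry's most abundant sequence and its isomiRs in 3 tables (known, conserved and candidate new miRNAs). IsomiRs of the candidate new miRNAs, microarray and RT-PCR data were not used here, and the transfection results for HK2 are only cited.

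RPM was computed here with the clean reads given by the study as totals. Ratios have exact Clopper-Pearson 95% intervals, conditional on the summed reads. A listed 0 was set to 3 reads, and no fold is given where neither library exceeded 3 reads. Ratios were recomputed with TMM factors (edgeR 4.0.16), DESeq2 1.42.0 size factors and other totals. The interval was tried on simulated counts that held counting error only, which says nothing of differences between animals or of PCR copies. The entries were taken by name. Other miRNAs named are the 3 nearest in level to each known member, those sharing a seed, pre-miRNAs with more reads than mir-320 and 1 arm listed, and the lists given. A few more were named after their values were seen, as said there. Members and lists were chosen with earlier results of these data known.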

Additional observations from a re-analysis of the deposited data

How the results depend on the processing

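For mir-320-3p the ratio was 0.988 with the sum of the listed reads, 0.802 with TMM factors, 0.791 with DESeq2 size factors, 0.721 without scaling, 0.897 per raw read, 0.935 with all isomiRs and 0.930 with all isomiRs of the mir-320 and PC-320 entries summed. For mir-484-5p it was 3.41 without scaling and 3.70 with all isomiRs. The ratios of mir-320-3p, mir-484-5p and PC-320c-2-3p stayed on the same side of 1 under every alternative run for them. That of mir-320-3p came as close to 1 as 0.988, without an interval. The ratio of the 21 nt PC-320d-3p, whose interval included 1, was 0.667 for the most abundant sequence and 1.23 with all isomiRs. The ratios of the other named miRNAs were not recomputed one by one. The count of miRNAs higher by 2-fold or more in the lactating MG was 79. It was 29 at a threshold of 4-fold and 50 without scaling. With a minimum of 10 summed reads it was 175, and with a minimum of 1000 it was 37. The count at least 2-fold lower was 62, and became 16, 102 and 33 at the 4-fold threshold and at these minimums. Changing the minimum also changes how many miRNAs are counted, so 175, 37, 102 and 33 are not out of 273. TMM, DESeq2 and no scaling moved the median log2 ratio of the 273 miRNAs by -0.26, -0.28 and -0.42, and the higher and lower counts to 59 and 71, 58 and 73, and 50 and 83. Comparing shares among 22 nt miRNAs only, and summing mir-320-3p with both PC-320d-3p entries (0.961), were chosen after seeing the data. No paired analysis was possible because each group held 1 library. The depth limits the PC-320d entries, whose most abundant sequences had at most 31 reads in a library.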
